A study of Mus musculus with 4 samples.

Results

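The 9 genes described here encode the laminin chains alpha 1, alpha 3, alpha 5, beta 1, beta 2, beta 3 and gamma 1 (Lama1, Lama3, Lama5, Lamb1, Lamb2, Lamb3 and Lamc1), the linker nidogen 1 (Nid1) and the proteoglycan perlecan (Hspg2). They were taken by gene symbol, without regard to their values, and all 9 were present among the 21878 rows of each of the 4 tables. The tables hold RNA sequencing of cultured mouse liver progenitor-like cells, a dividing state that adult liver cells enter when grown in transition and expansion media. HepLPC (n = 2 libraries) were grown from hepatocytes and NPC_LPC (n = 2 libraries) from the non-parenchymal fraction of the liver, that is, the cells other than hepatocytes. Per the labels all mice were C57BL/6 and 6 to 8 weeks old, while the protocol gives an age of 8 weeks. The protocol names tdTomato mice given AAV8-TBG-Cre for the hepatocytes, in which a hepatocyte promoter drives the Cre virus, and AlbCreERT/R26GFP mice for the non-parenchymal cells, in which an albumin promoter drives an inducible Cre. If the mice were used in that order, mouse line and virus follow the group and cannot be told apart from the origin of the cells. The cell type label of HepLPC mentions both origins, so the titles decided the grouping.

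Basement membranes are thin sheets of matrix under epithelia and around vessels. A laminin is a trimer of 1 alpha, 1 beta and 1 gamma chain that polymerises on the cell surface, where integrins and dystroglycan bind it. Nidogens link laminin to the network of type IV collagen through the gamma 1 chain, and perlecan, which carries heparan sulfate, joins both networks and holds growth factors. The alpha 3 and beta 3 chains belong to the laminin of hemidesmosomes, while beta 1 and gamma 1 occur in most other laminins. In the adult liver, laminins surround bile ducts and vessels and are sparse along the hepatocyte plates.

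Positions are given on the mouse build GRCm38 (called mm10). Hspg2 is on chromosome 4 (137468751 to 137570630) and has the longest coding sequence of the 9, 13149 bases in a transcript of 97 exons. Lamc1 (chromosome 1, 153218922 to 153332786) and Lamb3 (chromosome 1, 193294353 to 193343878) share a chromosome, with coding lengths of 4821 and 3504 bases. Lamb1 is on chromosome 12 (31265146 to 31329644), Lamb2 on chromosome 9 (108479847 to 108490530), Lama5 on chromosome 2 (180176373 to 180225904) and Nid1 on chromosome 13 (13437602 to 13512275). By the RefSeq annotation no other gene of the tables overlaps the span of any of the 9.

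In 4 of the genes the groups of libraries did not overlap and the unadjusted edgeR p was under 0.05. Over all tested genes, 56.4% had groups that did not overlap and 21.9% had an unadjusted edgeR p under 0.05. For each of the 4 genes, the 250 bases before the start that the RefSeq promoter table gives are shown, on build GRCm38.p6, plus strand. These sequences took no part in the comparison of the groups. Capitals mark matches on either strand to the GC box letters GGGCGG, the CCAAT box letters CCAAT or the TEAD site letters GGAATG. The AP-1 site letters TGANTCA and the TATA box letters TATAAA were also searched and had no match in the 4 windows. The Hspg2 window is chr4:137468553-137468802, Nid1 is chr13:13437352-13437601, Lamb1 is chr12:31265043-31265292 and Lamb3 is chr1:193301744-193301993.
Hspg2: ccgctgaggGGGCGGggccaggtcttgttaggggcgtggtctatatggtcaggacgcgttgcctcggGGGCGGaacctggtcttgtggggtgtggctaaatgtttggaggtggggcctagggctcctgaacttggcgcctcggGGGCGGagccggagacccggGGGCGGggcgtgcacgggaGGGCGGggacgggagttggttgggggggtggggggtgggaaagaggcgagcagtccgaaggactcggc
Nid1: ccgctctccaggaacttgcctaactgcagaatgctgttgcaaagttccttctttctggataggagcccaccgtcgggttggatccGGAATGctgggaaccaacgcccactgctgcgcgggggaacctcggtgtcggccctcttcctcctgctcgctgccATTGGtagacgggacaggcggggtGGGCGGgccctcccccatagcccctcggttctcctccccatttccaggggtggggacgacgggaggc
Lamb1: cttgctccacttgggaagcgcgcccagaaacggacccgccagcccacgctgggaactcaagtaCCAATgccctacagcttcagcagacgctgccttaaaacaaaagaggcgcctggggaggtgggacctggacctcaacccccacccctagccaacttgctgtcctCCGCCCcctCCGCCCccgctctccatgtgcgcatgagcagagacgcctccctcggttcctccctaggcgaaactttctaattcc
Lamb3: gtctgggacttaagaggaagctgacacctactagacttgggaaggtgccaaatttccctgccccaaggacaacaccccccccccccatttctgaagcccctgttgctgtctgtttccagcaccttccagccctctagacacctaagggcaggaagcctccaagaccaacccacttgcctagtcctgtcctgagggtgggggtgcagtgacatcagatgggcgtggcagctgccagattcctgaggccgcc
The Hspg2 window held 5 GC boxes, the Lamb1 window 2 GC boxes and 1 CCAAT box, and the Nid1 window 1 GC box, 1 CCAAT box and 1 TEAD site. The windows of Hspg2 and Lamb1 run past the gene starts given above, and both GC boxes of Lamb1 lie inside the stated gene span, as does the whole Lamb3 window. The Lamb3 window, at 1 of the 2 starts that RefSeq gives for this gene, had no match to any of the 5 motifs. Among the genes whose groups overlapped, the Lama5 window held 4 GC boxes and the Lamb2 window no match to any motif. Of the 32851 promoter windows of the same length, 32.7% held a GC box, 33.8% a CCAAT box, 12.6% a TEAD site, 12.4% a TATA box and 6.75% an AP-1 site. GC content was 70.0% for Hspg2, 64.4% for Nid1, 62.0% for Lamb1 and 58.8% for Lamb3, against a median of 52.4% over all windows. For the genes whose groups overlapped, GC content was 72.4% for Lama5 and 43.6% for Lamb2. A match describes the letters only.

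Library totals ran from 17575998 to 20625957 counts. Separate mice or cultures are not stated for the replicates, so p-values measure only the spread between these libraries. Markers of matrix-rich cells were low in both groups. Fibroblasts and endothelium also make laminins and perlecan. Of 12 markers of stellate cells and myofibroblasts, Lrat, Hand2 and Lum had no count in any library, and the list summed to 15.2 and 9.58 CPM (counts scaled to library size) in HepLPC and 6.59 and 18.3 CPM in NPC_LPC. Of the 4 tested, 3 had a fold change above 0 and 1 below. DESeq2 called Reln higher, at 8.78 and 5.41 CPM in HepLPC, against 0.494 and 1.14 CPM in NPC_LPC, where it called 5.81% of all tested genes higher. Of 10 endothelial markers, Clec4g and Tie1 had no count and Pecam1 at most 3 counts a library, with sums of 7.45 and 6.20 CPM in HepLPC, against 2.41 and 4.31 CPM in NPC_LPC. Most of each sum was Kdr, at 6.78 and 5.47 CPM in HepLPC, against 1.87 and 3.07 CPM in NPC_LPC. Of 10 markers of Kupffer cells and leukocytes, Clec4f, Timd4 and Cd3e had no count, and the sums were 26.1 and 16.9 CPM in HepLPC, against 81.8 and 21.9 CPM in NPC_LPC. Most of each sum was Cd68, at 21.7 and 13.3 CPM in HepLPC, against 79.7 and 20.4 CPM in NPC_LPC. Ptprc had at most 5 counts a library. The 10 cholangiocyte markers summed to 4778 and 2216 CPM in HepLPC and to 9511 and 4845 CPM in NPC_LPC, but its genes did not share a direction. Spp1 had 3026 and 905 CPM in HepLPC, against 8944 and 4203 CPM in NPC_LPC. Krt19 had 1435 and 885 CPM in HepLPC, against 111 and 275 CPM in NPC_LPC, and Krt7 had 103 and 166 CPM in HepLPC, against 1.43 and 17.2 CPM in NPC_LPC. DESeq2 called Spp1 lower and Krt19 higher in HepLPC, and edgeR called none of the 3. The 8 mesothelial markers summed to 1956 and 1909 CPM in HepLPC and to 765 and 679 CPM in NPC_LPC. None of them was without a count. By the mean over all libraries Krt19, which is also a biliary gene, was the most abundant. Msln was at 198 and 785 CPM in HepLPC, against 574 and 231 CPM in NPC_LPC. It exceeded Krt19 in NPC_LPC replicate 1. The 12 hepatocyte markers summed to 3730 and 4999.6 CPM in HepLPC, against 2683 and 1522 CPM in NPC_LPC, most of it Apob, while Cyp3a11, Cyp2e1 and Tat had no count. The 5 hepatocyte markers tested were all higher in HepLPC by log2 fold change, where 6144 of all 12332 tested genes were. Of these markers, Apoa1 had 95 and 16 counts in HepLPC and 0 in both NPC_LPC libraries. Ttr had 22 and 27 counts in HepLPC, against 0 and 1 in NPC_LPC. Apoa1 and Ttr passed the filter for testing through HepLPC alone, which set their direction. DESeq2 called Apoa1, Cebpa and Hnf4a higher, where it called 5.81% of all tested genes higher. EdgeR called Cebpa, at 29.7 and 21.9 CPM in HepLPC, against 1.48 and 0.793 CPM in NPC_LPC, where it called 0.227% of all tested genes higher. The part of these cell types in the differences below was not tested, and in bulk RNA fewer cells of a type and less RNA per cell cannot be told apart.

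Both cultures expressed the genes of a laminin with the alpha 5, beta 1 or beta 2, and gamma 1 chains, together with nidogen 1 and perlecan, and had little alpha 1 or alpha 3. By FPKM (fragments per kilobase of transcript, scaled to library size, the deposited value that allows genes of different length to be compared), Lamc1 was the most abundant of the 9 in both HepLPC libraries, Lama5 in NPC_LPC replicate 1 and Lamb1 in NPC_LPC replicate 2. In HepLPC the FPKM levels ran from Lamc1 at 46.6 ± 3.55 through Lamb1 at 32.7 ± 1.21, Lama5 at 29.9 ± 3.59, Nid1 at 25.6 ± 6.28 and Lamb2 at 17.4 ± 0.454 to Hspg2 at 7.91 ± 1.45 and Lamb3 at 5.89 ± 4.42 (mean ± SD, n = 2). In that order Lamb1, Lama5 and Nid1 exchanged places between the 2 HepLPC libraries or lay within each other's spread, as did Hspg2 and Lamb3. In NPC_LPC the order by FPKM was Lamb1 at 60.8 ± 19.9, Hspg2 at 40.4 ± 10.6, Lama5 at 39.8 ± 14.8, Lamc1 at 34.8 ± 14.0, Lamb2 at 19.3 ± 14.2, Nid1 at 9.04 ± 6.73 and Lamb3 at 1.31 ± 0.364 (n = 2). The spread (SD) of the 4 leading genes overlapped there, so their full order is not fixed by these libraries. Within each NPC_LPC library, Lamb1 and Lama5 were above Lamc1. Hspg2 held rank 6 and 7 of the 9 in the HepLPC libraries and rank 4 and 2 in the NPC_LPC libraries.

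**Figure D1:**
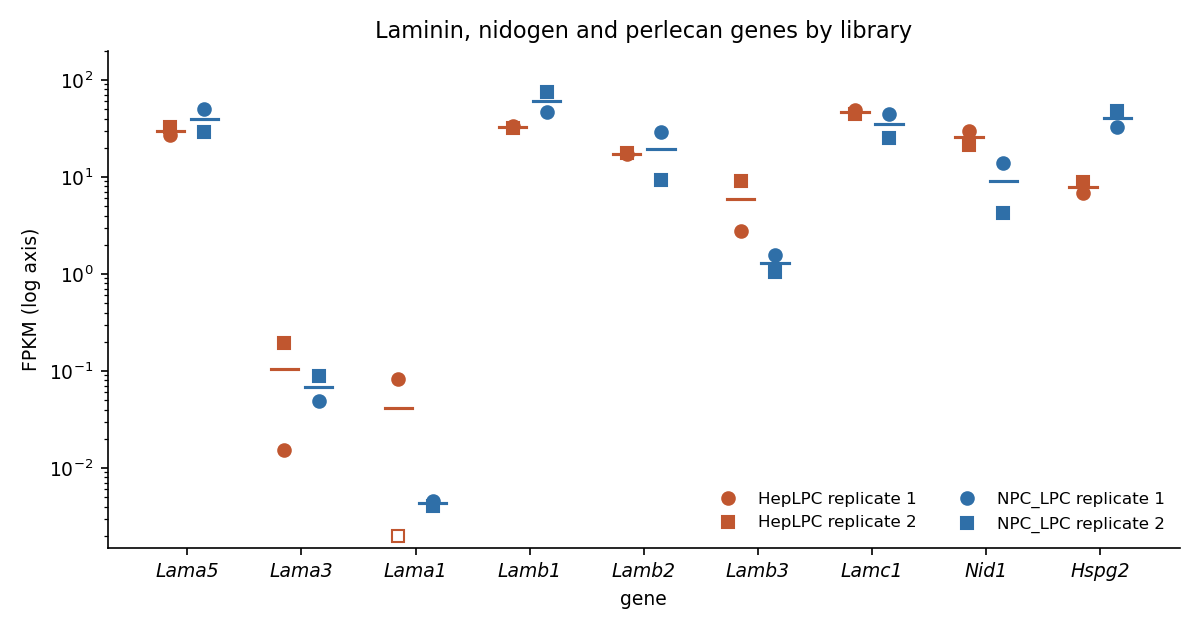
FPKM on a log axis for each of the 9 genes, with 1 point per library (circle for replicate 1, square for replicate 2) and a short line at the mean of each group; the open square for Lama1 is a value of 0 drawn at the foot of the axis. The HepLPC points of Hspg2 and Lamb1 sit below both NPC_LPC points, and those of Lamb3 and Nid1 sit above them.

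Between the origins, perlecan showed the clearest difference and none of the genes passed edgeR's test over all genes. Of the 9, Lama1 was too low to test. Of the 8 tested, edgeR called 0 at an adjusted p under 0.05, a threshold that 0.43% of the 12332 tested genes passed (0.227% with HepLPC higher and 0.203% with HepLPC lower). At an unadjusted p under 0.05, which 21.9% of all tested genes met, edgeR had 2 genes with a higher level in HepLPC (Lamb3 and Nid1), against 10.4% of all tested genes in that direction, and 2 with a lower level (Hspg2 and Lamb1), against 11.5%. The same 4 genes had groups that did not overlap, 2 in each direction, where 56.4% of all tested genes did so, 27.9% with HepLPC higher and 28.6% with HepLPC lower. DESeq2 called Lamb3 higher and Hspg2 lower in HepLPC, where it called 12.3% of all tested genes, 5.81% higher and 6.5% lower, and limma-voom called 0. Their log2 fold changes had a median of 0.11, with 4 above and 4 below 0, against -0.0030 over all tested genes. With 2 libraries a group, an exact permutation test of a single value cannot go below p = 0.3333.

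Perlecan, the heparan sulfate proteoglycan, was at 153 and 192 CPM in HepLPC, against 723 and 1074 CPM in NPC_LPC. Every NPC_LPC library was above every HepLPC library, and the lowest NPC_LPC value was well clear of the highest HepLPC value. The mean was 172 ± 27.0 CPM in HepLPC and 899 ± 248 CPM in NPC_LPC (SD, n = 2), a log2 fold change of -2.38 (SE 0.32), or 5.21-fold higher in NPC_LPC. The edgeR adjusted p was 0.057 and the DESeq2 adjusted p 5.4e-11. Hspg2 stood at rank 80 of all tested genes by edgeR p, while 764 genes had a larger absolute log2 fold change. The 727 tested genes of chromosome 4, on which Hspg2 lies, were lower in HepLPC as a whole by a median log2 fold change of -0.61. Its own log2 fold change minus that median was -1.77. The part of the chromosome in the value was not tested.

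Nidogen 1, which ties laminin to type IV collagen, was at 271 and 190 CPM in HepLPC, against 126 and 37.8 CPM in NPC_LPC. Both HepLPC libraries were above both NPC_LPC libraries, and the NPC_LPC libraries lay further apart, with 3.32 times as much in replicate 1 as in replicate 2. The log2 fold change was 1.49 (SE 0.58), with an edgeR adjusted p of 0.211 and a DESeq2 adjusted p of 0.0525. Without NPC_LPC replicate 1 the log2 fold change was 2.62, and edgeR's adjusted p was then 0.0294. Without NPC_LPC replicate 2 it was 0.87, with an edgeR adjusted p of 0.349.

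Among the beta chains, DESeq2 called Lamb3 higher in HepLPC, and neither tool called Lamb1 or Lamb2. Lamb1, the beta chain of most laminins, was at 238 and 222 CPM in HepLPC, against 333 and 535 CPM in NPC_LPC, so both HepLPC libraries were below both NPC_LPC libraries. Its log2 fold change was -0.92 (SE 0.31), with an edgeR adjusted p of 0.177 and a DESeq2 adjusted p of 0.0537. Without NPC_LPC replicate 2 it was -0.53, and the adjusted p of edgeR was then 0.493. Lamb3, the beta chain of the hemidesmosome laminin, was at 16.004 and 48.8 CPM in HepLPC, against 8.56 and 6.24 CPM in NPC_LPC. Replicate 2 of HepLPC had 3.05 times the Lamb3 level of replicate 1, yet both were above the NPC_LPC libraries. The Lamb3 log2 fold change was 2.13 (SE 0.59), or 4.38-fold higher in HepLPC (edgeR adjusted p = 0.132, DESeq2 adjusted p = 0.00662). Without HepLPC replicate 2 it was 1.11, with an edgeR adjusted p of 0.311. Lamb2, the beta chain of the glomerulus and the neuromuscular junction, was at 93.5 and 94.5 CPM in HepLPC, against 160 and 54.6 CPM in NPC_LPC. The HepLPC values of Lamb2 lay between those of NPC_LPC (a log2 fold change of -0.19 with SE 0.50, adjusted p = 0.852 by edgeR), and the sign turned with the library left out, at 0.80 without NPC_LPC replicate 1.

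Lamc1, the gamma chain that carries the nidogen binding site, was at 448 and 391 CPM in HepLPC, against 406 and 228 CPM in NPC_LPC. The groups overlapped, because NPC_LPC replicate 1 lay between the HepLPC libraries. The log2 fold change was 0.40 (SE 0.34), and the adjusted p of edgeR was 0.52. It was 0.90 without NPC_LPC replicate 1 and 0.047 without NPC_LPC replicate 2.

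Among the alpha chains, Lama5, the main alpha chain of adult epithelia and vessels, was at 384 and 461 CPM in HepLPC, against 725 and 426 CPM in NPC_LPC. The groups overlapped, with NPC_LPC replicate 1 high and replicate 2 between the HepLPC libraries (a log2 fold change of -0.45 with SE 0.33, adjusted p = 0.475 by edgeR). Lama3 (chromosome 18, 12333417 to 12583013), the alpha chain of the hemidesmosome laminin, had 8 and 53 counts in HepLPC and 17 and 26 counts in NPC_LPC, with a log2 fold change of 0.62 (SE 1.001), and the adjusted p of edgeR was 0.749. The HepLPC values of Lama3 enclosed those of NPC_LPC, and the sign turned to -1.31 without HepLPC replicate 2. Lama1 (chromosome 17, 67697127 to 67822645), an alpha chain of the embryo, had 19 and 0 counts in HepLPC and 1 and 1 count in NPC_LPC, so only HepLPC replicate 1 was above the floor of 3 counts, which equals 0.149 to 0.169 CPM.

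**Figure D2:**
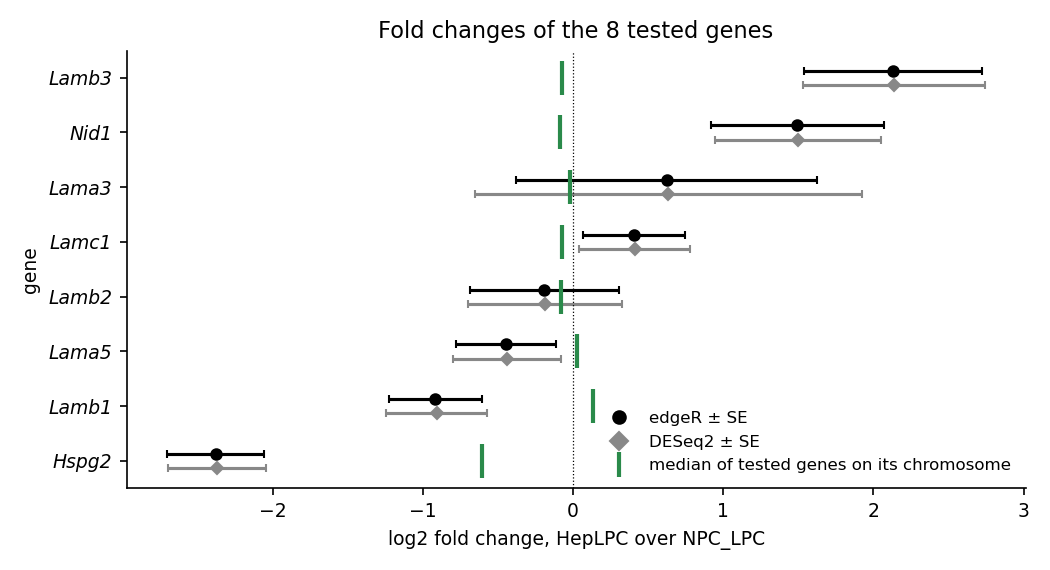
Log2 fold change, HepLPC over NPC_LPC, of the 8 tested genes (x axis), from edgeR (black circles) and DESeq2 (grey diamonds). Bars show the standard error, which for edgeR was worked back from the F statistic of its test. Green ticks mark the median log2 fold change of all tested genes on each gene's chromosome. Both tools give Hspg2 the lowest value, at -2.38 and -2.37, and Lamb3 the highest, at 2.13 and 2.14.

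The make-up of the alpha and beta chain classes was compared within libraries by FPKM, which does not depend on the scaling between libraries. Lama5 made up 96.6% and 96.4% of the alpha chain FPKM (Lama1 to Lama5) in HepLPC and 94.2% and 95.5% in NPC_LPC. Nearly all of the rest was Lama4, an alpha chain of endothelium and mesenchyme, at 3.07% and 3.06% in HepLPC and 5.64% and 4.16% in NPC_LPC. Lamb1 made up 62.9% and 54.4% of the beta chain FPKM in HepLPC and 60.2% and 87.9% in NPC_LPC, so NPC_LPC replicate 2 stood apart from the other 3 libraries. Lamb3 made up 5.19% and 15.4% of beta chain FPKM in HepLPC and 2.01% and 1.23% in NPC_LPC. The groups did not overlap in the shares of Lama4, Lama5 and Lamb3, for each of which the exact permutation test gave p = 0.3333, the smallest it can give. The shares of Lamb1 and Lamb2 overlapped.

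**Figure D3:**
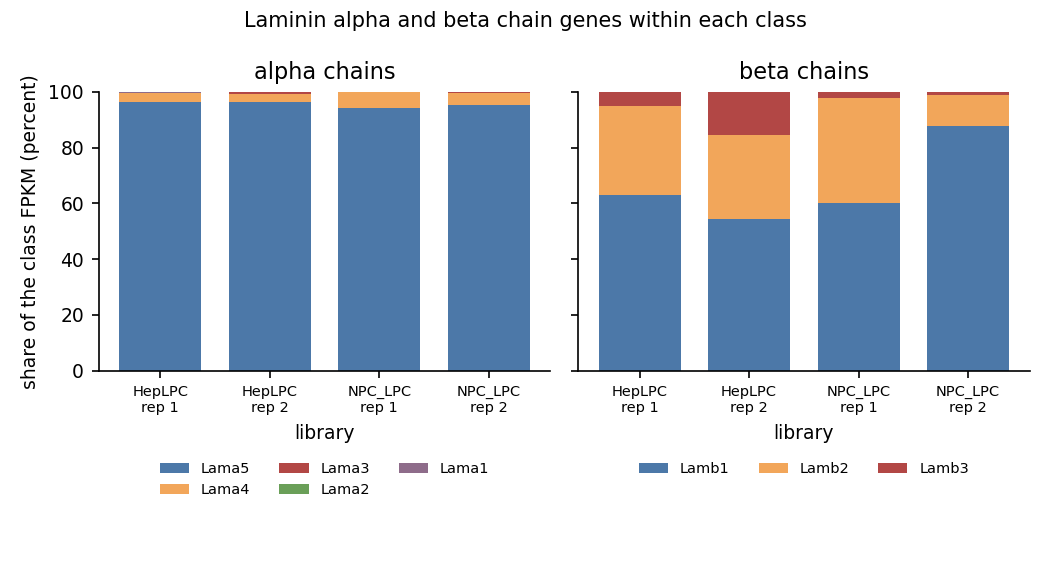
Share of each laminin chain gene in the summed FPKM of its class (percent, stacked bars), for alpha and beta chains in each of the 4 libraries. Lama5 fills at least 94.2% of the alpha bars, and Lamb3 is visible in the beta bars of HepLPC replicate 2 at 15.4%.

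Relative to the gamma 1 chain, to which nidogen binds, nidogen 1 and perlecan differed in opposite directions between the groups. The ratio of Nid1 to Lamc1 FPKM was 0.611 and 0.479 in HepLPC and 0.309 and 0.172 in NPC_LPC. The ratio of Hspg2 to Lamc1 FPKM was 0.14 and 0.203 in HepLPC and 0.736 and 1.92 in NPC_LPC. Perlecan was below the gamma 1 level in both HepLPC libraries and in NPC_LPC replicate 1, and above it in NPC_LPC replicate 2. The ratio of Lama5 to Lamc1 FPKM was 0.558 and 0.736 in HepLPC and 1.12 and 1.18 in NPC_LPC, with the NPC_LPC libraries close together. The ratio of Lamb1 to Lamc1 FPKM was 0.683 and 0.722 in HepLPC and 1.04 and 2.998 in NPC_LPC. None of these 4 ratios overlapped between the groups (exact permutation p = 0.3333 for each, two-sided).

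**Figure D4:**
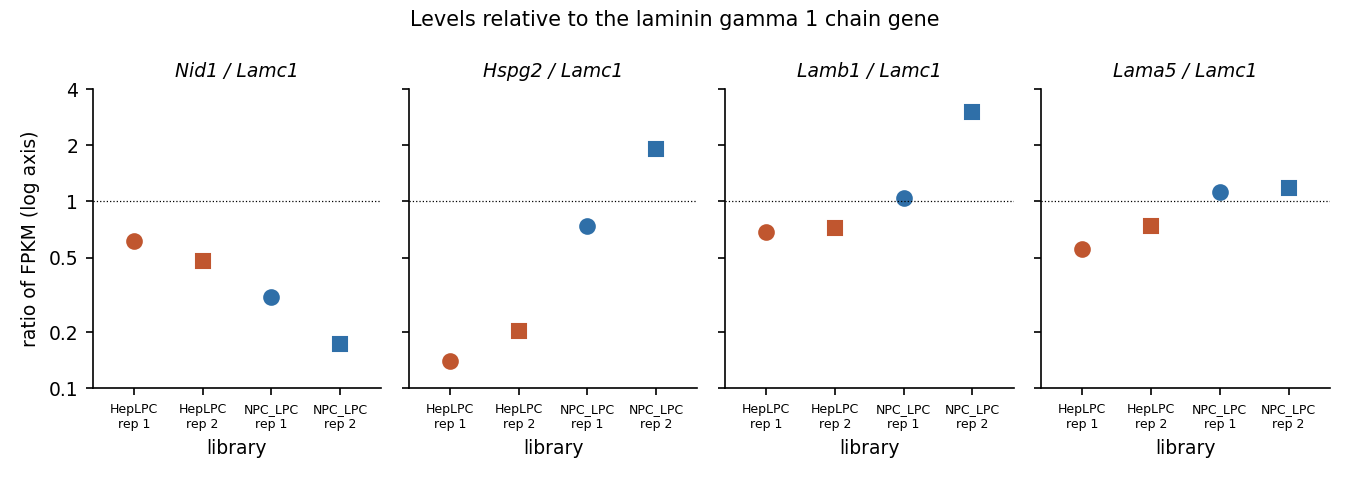
Ratio of the FPKM of Nid1, Hspg2, Lamb1 and Lama5 to that of Lamc1 (log axis) in each of the 4 libraries, with circles for replicate 1, squares for replicate 2 and a dotted line at equal FPKM. The HepLPC points are above the NPC_LPC points for Nid1 and below them for Hspg2, Lamb1 and Lama5.

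The NPC_LPC libraries differed from each other more than the HepLPC libraries in most of these genes. Over the 7 genes with a mean of at least 5 CPM, the larger NPC_LPC value was a median of 1.70 times the smaller (1.37 to 3.32), against 1.24 times over 10746 genes with at least 1 CPM in every library. In HepLPC the median was 1.20 times (1.01 to 3.05), against 1.29 times over those genes. NPC_LPC replicate 1 exceeded replicate 2 in Lama5, Lamb2, Lamb3, Lamc1 and Nid1, and replicate 2 exceeded replicate 1 in Lamb1 and Hspg2. The widest gap in HepLPC was that of Lamb3.

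The other laminin and netrin chains had 5 of 7 genes tested, and their median log2 fold change was -0.33. EdgeR called 0, and 2 had an unadjusted p under 0.05, against 21.9% of all tested genes. DESeq2 called 1 lower, against 6.5% of all tested genes. The gene called by DESeq2 was Ntn1, a secreted guidance protein with laminin-like domains, at 6.78 and 2.76 CPM in HepLPC, against 22.8 and 42.4 CPM in NPC_LPC. Ntn4, a netrin that binds laminin, was at 19.4 and 36.2 CPM in HepLPC, against 37.5 and 32.5 CPM in NPC_LPC, with overlapping groups.

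Of 24 other basement membrane genes, 16 were tested, 13 of them with a fold change below 0, where 6188 of all 12332 tested genes were. The median of the 16 was -0.86. EdgeR called 0 of the 16, and 4 had an unadjusted p under 0.05, against 21.9% of all tested genes. DESeq2 called 2 higher and 2 lower, against 5.81% and 6.5% of all tested genes. The pair called lower were the type IV collagen chains Col4a1 and Col4a2, the scaffold to which nidogen ties laminin. Col4a1 was at 274 and 448 CPM in HepLPC, against 996 and 2103 CPM in NPC_LPC (a log2 fold change of -2.10 with SE 0.47, adjusted p = 0.0978 by edgeR). Col4a2 had 162 and 294 CPM in HepLPC, against 700 and 1445 CPM in NPC_LPC. Both HepLPC libraries were below both NPC_LPC libraries for each chain, as for Hspg2. Nid2, the second nidogen, was at 14.4 and 29.1 CPM in HepLPC, against 3.35 and 2.97 CPM in NPC_LPC (a log2 fold change of 2.78 with SE 0.48, adjusted p = 0.074 by edgeR, DESeq2 adjusted p = 1.5e-05). Nid2 was far below Nid1 by FPKM in all 4 libraries, at 2.07 and 4.39 in HepLPC and 0.512 and 0.442 in NPC_LPC. Npnt, an integrin ligand of epithelial basement membranes, was the other gene that DESeq2 called higher, at 442 and 257 CPM in HepLPC, against 42.5 and 156 CPM in NPC_LPC, and is named after its values were seen. The abundant components Sparc, which binds collagen, and Tinagl1, a tubulointerstitial nephritis antigen-like protein, overlapped between the groups. Sparc was at 351 and 665 CPM in HepLPC, against 617 and 652 CPM in NPC_LPC, and Tinagl1 at 145 and 426 CPM in HepLPC, against 243 and 400 CPM in NPC_LPC.

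All 15 laminin receptor genes were tested, and their median log2 fold change was -0.30. Of these edgeR called 0, and 7 had an unadjusted p under 0.05, against 21.9% of all tested genes. DESeq2 called 3 higher and 3 lower, against 5.81% and 6.5% of all tested genes. The 3 lower, named after their values were seen, were Itga9, Sdc4 and the dystroglycan gene Dag1, the last at 164 and 197 CPM in HepLPC, against 397 and 318 CPM in NPC_LPC. The 3 higher were integrin subunits that bind laminin. Itga6 was at 313 and 212 CPM in HepLPC, against 84.1 and 113 CPM in NPC_LPC (a log2 fold change of 1.41 with SE 0.31, adjusted p = 0.0938 by edgeR). Its hemidesmosome partner Itgb4 was at 110 and 194 CPM in HepLPC, against 17.3 and 39.7 CPM in NPC_LPC (a log2 fold change of 2.42 with SE 0.50, adjusted p = 0.0866 by edgeR). Itga7, known best from muscle, was at 35.7 and 43.2 CPM in HepLPC, against 5.16 and 1.14 CPM in NPC_LPC. All 3 had both HepLPC libraries above both NPC_LPC libraries. The common subunit Itgb1 was at 717 and 901 CPM in HepLPC, against 1043 and 2913 CPM in NPC_LPC (edgeR adjusted p = 0.225). Rpsa, a ribosomal protein also described as a laminin receptor, was at 2382 and 2781 CPM in HepLPC, against 1595 and 1831 CPM in NPC_LPC, and the syndecan Sdc1 overlapped between the groups.

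Of 6 hemidesmosome genes, which include Itga6 and Itgb4, 5 were tested. EdgeR called 0, and 2 had an unadjusted p under 0.05, against 21.9% of all tested genes. DESeq2 called Itga6 and Itgb4 higher, where it called 5.81% of all tested genes higher. The linker Plec was at 626 and 699 CPM in HepLPC, against 372 and 563 CPM in NPC_LPC, on chromosome 15, whose median log2 fold change was 0.65. The tetraspanin Cd151 overlapped, at 232 and 303 CPM in HepLPC, against 237 and 421 CPM in NPC_LPC. Their log2 fold changes had a median of 0.50.

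Enzymes that act on these proteins had a median log2 fold change below 0 in 2 of 3 lists. For comparison, 21.9% of all tested genes had an unadjusted edgeR p under 0.05. DESeq2 called 5.81% of all tested genes higher and 6.5% lower. Of 11 genes of matrix processing and crosslinking, 10 were tested, 9 with a fold change below 0, where 6188 of all 12332 tested genes were. The median of the 10 was -0.99. Lox and Mmp7 passed the filter for testing through NPC_LPC alone, which set their direction. Mmp7, named after its values were seen, had 0 counts in HepLPC and 14 and 12 in NPC_LPC. EdgeR called 0 of the 10 (6 at an unadjusted p under 0.05). DESeq2 called 4 lower (Bmp1, Ctsl, Lox and, named after its values were seen, the peroxidase Pxdn). Bmp1, the protease that trims laminin and perlecan, was at 53.1 and 147 CPM in HepLPC, against 446 and 351 CPM in NPC_LPC. Bmp1 lies on chromosome 14, as do Mmp14, Loxl2 and Extl3 below and Nid2 above, whose log2 fold change was 2.78. The tested genes of that chromosome had a median log2 fold change of -0.42, and its part in these values was not tested. Ext1 below, with a log2 fold change of -0.79, lies on chromosome 15, whose median was 0.65. The lysosomal protease Ctsl was at 833 and 633 CPM in HepLPC, against 1372 and 2513 CPM in NPC_LPC. Lox, which crosslinks collagen, had 1 and 0 counts in HepLPC and was at 85.8 and 13.0 CPM in NPC_LPC. Mmp14, a membrane-bound metalloproteinase, overlapped, and the crosslinker Loxl2 was at 164 and 316 CPM in HepLPC, against 412 and 543 CPM in NPC_LPC. Of 15 genes of heparan sulfate synthesis and editing, 13 were tested with a median of -0.47, edgeR called 0 (4 at an unadjusted p under 0.05) and DESeq2 called 2 lower. These were the sulfotransferase Ndst1, at 162 and 155 CPM in HepLPC, against 329 and 309 CPM in NPC_LPC, and the glycosyltransferase Extl3, at 36.2 and 45.0 CPM in HepLPC, against 77.0 and 107 CPM in NPC_LPC. The polymerase Ext1 was at 147 and 231 CPM in HepLPC, against 331 and 325 CPM in NPC_LPC, the sulfatase Sulf2 at 312 and 342 CPM in HepLPC, against 368 and 541 CPM in NPC_LPC, and B3gat3 overlapped. The enzymes that glycosylate dystroglycan had 12 genes in the tables and 11 tested, with a median of 0.095, and edgeR and DESeq2 called 0 (3 at an unadjusted edgeR p under 0.05). Among the most abundant by FPKM were B4gat1 and Tmem5, of which Tmem5 had groups that did not overlap in CPM, at 89.4 and 75.2 CPM in HepLPC, against 54.1 and 72.5 CPM in NPC_LPC.

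The genes nearest in pattern were sought among 10018 tested genes with a mean of at least 5 CPM, by the root mean square difference of centred log2 CPM over the 4 libraries. Hspg2, the gene with the largest absolute fold change of the 8 tested, was nearest to Fbln2, a fibulin of basement membranes and elastic fibres, at a difference of 0.0239. Fbln2 was at 534 and 680 CPM in HepLPC, against 2578 and 3669 CPM in NPC_LPC. The next were the interferon-pathway genes Stat2 (0.0757) and Tap1 (0.101). Lamc1 was nearest to Cxadr, an adhesion receptor of epithelia (0.0536), Slc9a3r1, a scaffold of the brush border (0.0725), and Daglb, a lipase (0.0742). With 4 libraries many genes lie close to any pattern, and these distances are descriptions. Among the 8 tested genes themselves, Lamb1 was the nearest to Hspg2, at 0.757.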

How the data were processed

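RNA was extracted with an RNeasy kit and sequenced from stranded, paired-end TruSeq mRNA libraries, per the labels' protocols. Trimmomatic, HISAT2, Cufflinks, HTSeq and DESeq with build mm10 are named in the submitters' processing notes; for versions, annotation and strand setting the sources used here give nothing. Each deposited table holds a whole-number read count and an FPKM value per gene, both made by the authors. Without a known strand setting, reads of antisense partners cannot be told apart. One table spells its FPKM column differently.

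Counts were fitted with edgeR 4.0.16 in R 4.3.3 (quasi-likelihood test, group as the only term, TMM factors, filterByExpr), which left 12332 of 21878 genes; 6043 had no count in any library. P-values were adjusted by Benjamini-Hochberg over all tested genes, with a threshold of 0.05. EdgeR standard errors (SE) were worked back from the test, as the absolute log2 fold change over the square root of its F statistic. CPM values use TMM library sizes, and a floor of 3 counts covers counting error only. FPKM served for levels between genes and for shares. DESeq2 1.42.0, limma 3.58.1 and other filters, scalings and left-out libraries were alternatives. The RefSeq promoter table matched 6 of the 9 genes; gene positions are from the RefSeq gene table and coding lengths from GENCODE, both on GRCm38. In each companion list the named genes were up to 4 past the edgeR threshold, up to 3 past the DESeq2 threshold with the smallest p, and the 3 highest by mean FPKM. A few genes that this rule or the marker lists name are not reported here. The 9 genes, the lists and the tests were chosen with earlier results of these data known.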

Additional observations from a re-analysis of the deposited data

How the results depend on the processing

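EdgeR's count of called genes, 53 over all genes, was 0 at a threshold of 0.01, 593 with every gene that had a count, 106 with a mean of at least 10 CPM, 1517 with DESeq2 and 5 with limma-voom. It was 111 with limma on log2(FPKM + 1) at a mean FPKM of at least 0.5, and 0 with the same test on every gene above 0. Leaving out 1 library gave 0 to 377 calls. Of the 9 genes, 0 were called in the main test, 1 (Hspg2) with every gene that had a count, with a mean of at least 10 CPM and with limma on log2(FPKM + 1) or log2(FPKM + 0.1) at a mean FPKM of at least 0.5, and 2 (Hspg2 and Lamb3) with DESeq2. Leaving out 1 library gave 0 to 2, the 2 being Hspg2 and Nid1 without NPC_LPC replicate 1. The replicate numbers were not shown to pair the libraries (r = -0.046 between the replicate differences of the groups over 12332 genes), and with a replicate block edgeR called 136 genes and 1 of the 9, Hspg2. The sign of Lamb2, -0.19 in the main test, turned to 0.0087 with limma-voom, 0.0049 with the replicate block, 0.80 without NPC_LPC replicate 1, 0.057 with limma on log2(FPKM + 1) under either filter and 0.073 with log2(FPKM + 0.1). Over the 4 fits without 1 library, Lamb2 ran from -0.77 to 0.80, Lama5 from -0.78 to 0.0045 (without NPC_LPC replicate 1) and Lama3 from -1.31 (without HepLPC replicate 2) to 1.44. The causes were not tested. Hspg2, Lamb1, Lamb3, Lamc1 and Nid1 kept their sign in all 16 alternatives, though Lamc1 ran from 0.047 to 0.90 and Lamb1 from -1.20 to -0.53. The threshold of 0.01, 1 of the 16, leaves the fold changes unchanged, so no sign could turn there. The HepLPC minus NPC_LPC difference in chain shares depended on single libraries: that of Lamb2 (6.74 percentage points) was -6.72 without NPC_LPC replicate 2, that of Lama3 (0.122) was -0.136 without HepLPC replicate 2, that of Lamb1 (-15.4) was -1.57 without NPC_LPC replicate 2 and -29.3 without NPC_LPC replicate 1, and that of Lamb3 (8.68) was 3.56 without HepLPC replicate 2 and 13.8 without HepLPC replicate 1. Those of Lama4 and Lama5 kept their sign without any 1 library. With counts per coding length in place of FPKM, chosen after seeing the data, the shares of all alpha and beta chain genes tried kept their sign. A version with RefSeq protein lengths was not run.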
